A study of Mus musculus with 4 samples.

Results

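The 9 genes described here carry out the storage, uptake, export and sensing of iron in the cell. They are Ftl1, Fth1, Tfrc, Steap3, Slc11a2, Slc40a1, Ncoa4, Aco1 and Ireb2, and they were found by gene symbol among the 24527 genes of a read count table. The set was drawn up around Ftl1 and Fth1 which were chosen by their read counts, the highest of all genes in the spheroid library, so that their rank there is a description and supports nothing. Ftl1 held rank 1 and Fth1 rank 2 in the spheroid, with levels of 19613 and 12424 CPM, the reads of a gene relative to all reads of its library after scaling between libraries by TMM factors. Just outside were Aldoa at rank 3 with 11688 CPM and Sqstm1 at rank 4 with 7323 CPM.

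The table holds 4 libraries, 1 per condition, all labelled with the WT genotype. The melanoma cells are labelled B16F10, a mouse line. The methods give the cultures for sorting as made with Linterna B16F10, a form of it with turbo-green fluorescent protein in the cytoplasm, from which live fluorescent cells were sorted. The 2D monoculture library came from B16F10 cells grown alone on plastic, and the 2D co-culture library from B16F10 cells grown flat with NIH/3T3 mouse fibroblasts. For the spheroid library B16F10 cells were sorted out of hanging-drop spheroids formed with NIH/3T3 cells, whose age at sorting no source used here gives. The tumor library came from B16F10 tumors raised under the skin of both flanks of female C57BL/6 mice aged 1 year. B16F10 stocks were kept in RPMI and spheroids were set up in complete Dulbecco's modified Eagle medium, so that medium and culture form cannot be told apart. The methods state n = 3 for the RNA isolation, and 1 library per condition is in the table. There is therefore no replicate check and no test in what follows, and each interval covers counting error only.

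Total reads lay between 118896900 and 150028663 per library, so that a gene listed at 0 could lie at up to 0.0185 to 0.0262 CPM, the worth of 3 reads. Defining melanocyte genes were present in every library, with a summed level of 16911 CPM in the 2D monoculture, 15306 in the 2D co-culture, 11420 in the spheroid and 20122 in the tumor over 8 genes. The tumor library is described as sorted cells in the methods and as a snap-frozen tumor in its label, and it also held markers of other cell types. All 12 macrophage markers had reads in it and summed to 2276 CPM, against 11.7 to 30.5 CPM in the other libraries. Its 7 fibroblast, 6 endothelial and 5 skeletal muscle markers summed to 2699, 244 and 4599 CPM. In the 2D co-culture the fibroblast markers summed to 652 CPM, against 6.54 in the 2D monoculture and 12.9 in the spheroid. Single fibroblast markers in the 2D co-culture ranged from 0.0873 to 514 CPM, so that the highest made up most of that sum. The part of all these markers in the results below was not tested. In bulk RNA fewer cells of a type and less RNA per cell cannot be told apart.

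Iron enters most cells bound to transferrin, is reduced and released in the endosome, and is either used or stored inside ferritin, a hollow shell built of heavy and light chains. Iron regulatory proteins bind hairpins called iron-responsive elements in the messenger RNA of these same genes when iron is scarce. A hairpin in the 5′ UTR then blocks translation, as known for ferritin, and hairpins in the 3′ UTR protect the message from decay, as known for the transferrin receptor. Read counts show the level of the message, and the level of the protein was not measured.

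Matches to a hairpin pattern are shown as a description of the 9 genes. Such hairpins are known in genes of iron handling, so the choice of the genes is not independent of them. Transcripts of the GENCODE vM21 annotation (GRCm38) with a RefSeq match were searched on their own strand for the letter C, any 5 bases, the loop CAGTGN and 5 bases able to pair with the first 5, with G-T pairs allowed. Only matches within a UTR were kept, and the search found 7 windows in 4 of the 9 genes. In each 29-base window, written 5′ to 3′, the capitals mark the unpaired C and the 6 bases of the loop.
Ftl1, 5′ UTR, chr7:45459779-45459807, minus strand: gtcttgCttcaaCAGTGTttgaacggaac
Fth1, 5′ UTR, chr19:9982732-9982760, plus strand: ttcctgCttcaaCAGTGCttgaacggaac
Slc40a1, 5′ UTR, chr1:45925465-45925493, minus strand: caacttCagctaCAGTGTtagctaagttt
Tfrc, 3′ UTR, chr16:32631219-32631247, plus strand: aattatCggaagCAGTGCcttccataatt
Tfrc, 3′ UTR, chr16:32631598-32631626, plus strand: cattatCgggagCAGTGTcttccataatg
Tfrc, 3′ UTR, chr16:32631663-32631691, plus strand: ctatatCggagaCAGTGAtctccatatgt
Tfrc, 3′ UTR, chr16:32631710-32631738, plus strand: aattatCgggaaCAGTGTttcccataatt

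The windows of Ftl1 and Fth1 were identical at 26 of 29 bases. A match to the search pattern was found in the 5′ UTR of 21 of 18848 genes (0.111%) and in the 3′ UTR of 107 of 18933 genes (0.565%). For Steap3, Slc11a2, Ncoa4, Aco1 and Ireb2 no match was found in the UTRs of the transcripts searched. The pattern allows no unpaired base in the stem next to the loop, so hairpins of another shape were missed. The lack of a match therefore does not show that a gene lacks an iron-responsive element. A match is a description of the sequence and not a measured binding site.

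The ferritin chains were higher in the spheroid than in any other library. Ftl1 encodes the light chain, which favours the laying down of the iron core, and its gene lies at chr7:45457944-45459884 with 968 exonic bases. Its level was 5958 CPM in the 2D monoculture, 11532 in the 2D co-culture, 19613 in the spheroid and 3582 in the tumor. The order from spheroid over 2D co-culture and 2D monoculture to tumor thus ran in steps of 1.70-, 1.94- and 1.66-fold. Ftl1 was the gene with the most reads in the 2D co-culture as well, where it took 1.11% of all reads, against 0.586% in the 2D monoculture, where it held rank 4, and 0.417% in the tumor, where it held rank 6.

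Fth1 encodes the heavy chain, whose ferroxidase site oxidizes the iron that enters the shell, and its gene lies at chr19:9980598-9985098 with 929 exonic bases. Its level was 3408 CPM in the 2D monoculture, 6346 in the 2D co-culture, 12424 in the spheroid and 1471 in the tumor, the same order as for Ftl1. Its span from the spheroid to the tumor was 8.44-fold, wider than the 5.48-fold span of Ftl1. By reads Fth1 held rank 13 in the 2D monoculture, 35 in the tumor and 2 in the 2D co-culture. Both chains together took 0.921% of all reads in the 2D monoculture, 1.72% in the 2D co-culture, 2.91% in the spheroid and 0.588% in the tumor.

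Against the 2D monoculture, the log2 ratio of the spheroid was 1.72 (95% counting interval 1.72 to 1.72) for Ftl1 and 1.87 (1.86 to 1.87) for Fth1. Those of the flat co-culture were 0.95 and 0.90, just under the 2-fold used here as the size of a call, and those of the tumor -0.73 and -1.21. Among the 12728 genes that averaged 1 CPM or more, the spheroid ratios lay at percentiles 97.7 and 98.2, which the choice of both genes by their spheroid reads fixes in part. The 2D co-culture ratios lay at 95.6 and 94.9. The tumor ratio of Fth1 depended on the scaling, since it lay under 2-fold with total counts, upper quartiles or TMM factors from 2D monoculture genes. Ferritin genes have processed copies in the mouse genome. Those of the annotation, Fth-ps2, Fth-ps3, Ftl1-ps2 and Ftl2-ps, are not among the genes of the table. The 7 Fthl17 genes and copies in the table had 0 reads in every library, which says nothing about the processed copies. No source used here says how reads that match several places were handled. The read counts of Ftl1 and Fth1 are uncertain to that extent.

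The ratio of the chains to each other does not depend on the scaling between libraries. There were 0.572 Fth1 reads for each Ftl1 read in the 2D monoculture, 0.550 in the 2D co-culture, 0.633 in the spheroid and 0.411 in the tumor. Their counting intervals were narrow at this depth, with 0.570 to 0.574, 0.549 to 0.552, 0.632 to 0.635 and 0.409 to 0.413 in the same order, and do not show how far replicates would differ. The heavy chain was lowest relative to the light chain in the tumor library, and the spheroid ratio was 1.54 times that of the tumor and 1.11 times that of the 2D monoculture. With genes of like GC content and length as the baseline, these became 2.08 and 1.10 times. Per exonic length, light chain messages outnumbered heavy chain messages in all 4 libraries, with 0.596, 0.573, 0.660 and 0.428 heavy per light.

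**Figure D1:**
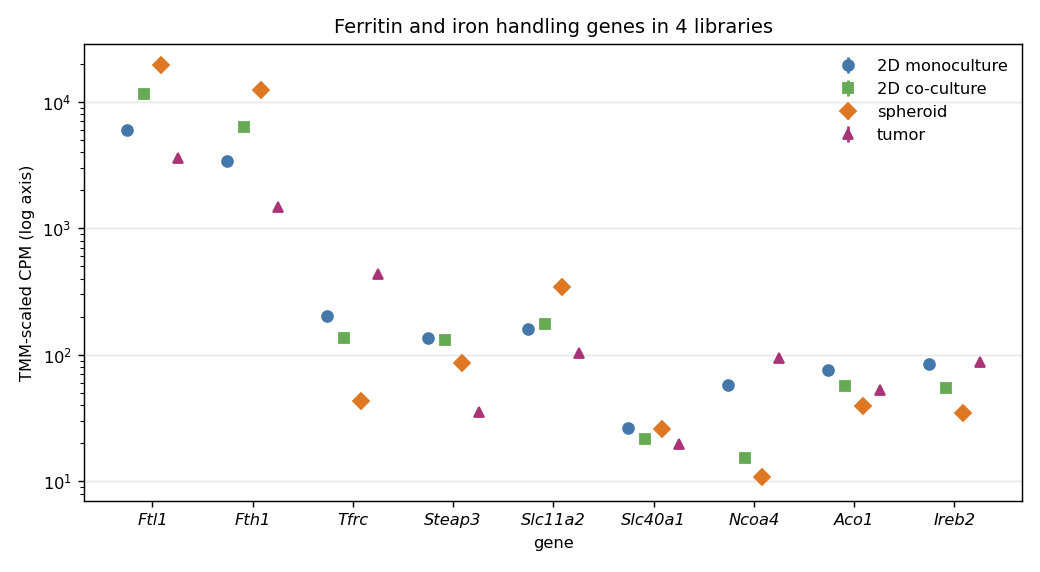
Levels of the 9 iron handling genes in the 4 libraries, in TMM-scaled CPM on a log axis, with 95% counting intervals that are mostly smaller than the points. Ftl1 and Fth1 are highest in the spheroid at 19613 and 12424 CPM, where Tfrc and Ncoa4 are lowest at 43.2 and 10.8 CPM.

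The genes of iron uptake did not share an order. Tfrc encodes transferrin receptor 1, which takes up transferrin-bound iron, and its gene lies at chr16:32608920-32632794 with 4890 exonic bases. Its level was 203 CPM in the 2D monoculture, 137 in the 2D co-culture, 43.2 in the spheroid and 434 in the tumor. The order was the reverse of that of ferritin, and the span of 10.1-fold from tumor to spheroid was the widest of the 9 genes. By reads Tfrc held rank 981 in the 2D monoculture, 255 in the tumor, 1662 with fibroblasts in flat culture and 4962 in the spheroid. The log2 ratio against the 2D monoculture was -2.23 (-2.27 to -2.19) in the spheroid, -0.56 in the flat co-culture and 1.10 (1.08 to 1.12) in the tumor.

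Steap3, a ferrireductase that reduces iron in the endosome so that it can leave, lies at chr1:120190757-120272705. Its level was 137 CPM in the 2D monoculture, 131 in the 2D co-culture, 86.3 in the spheroid and 35.5 in the tumor. The 2D cultures were within 1.04-fold of each other, and the tumor was 3.85-fold lower than the 2D monoculture, the largest difference among the 9 genes between these libraries. Its ratio of tumor to 2D monoculture, -1.94 on the log2 scale (-1.99 to -1.90), lay at percentile 2.77 of all genes.

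Slc11a2 encodes DMT1, the transporter that moves ferrous iron out of the endosome into the cytosol, and lies at chr15:100387898-100425072. Its level was 159 CPM in the 2D monoculture, 175 in the 2D co-culture, 344 in the spheroid and 103 in the tumor. By CPM it shared the order of the ferritin chains and not that of Tfrc, the receptor upstream of it in the same route. The place of the tumor in that order was not kept with genes of like GC content and length as the baseline, where the log2 ratio of tumor to 2D monoculture moved from -0.63 to 0.28. The 2D cultures differed by 1.10-fold, and the spheroid was 1.97-fold above the 2D co-culture and 3.35-fold above the tumor. Per kilobase of exon, Slc11a2 stood below Tfrc in the 2D monoculture (27.7 against 41.4 CPM per kb) and the tumor (17.9 against 88.8). It stood slightly above it in the flat co-culture (30.4 against 28.0) and above it in the spheroid, where Tfrc had 8.83 CPM per kb.

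The exporter had the smallest span of CPM among the 9 genes. Slc40a1 encodes ferroportin, the only known cellular iron exporter, and lies at chr1:45908068-45926523. Its level was 26.5 CPM in the 2D monoculture (25.7 to 27.4), 21.5 in the 2D co-culture (20.7 to 22.4), 25.8 in the spheroid (24.9 to 26.7) and 19.6 in the tumor (19.0 to 20.3). The intervals of the 2D monoculture and the spheroid overlapped, and the whole span was 1.35-fold. Its 5′ UTR matches the same hairpin pattern as those of the ferritin chains, whose messages spanned 5.48- and 8.44-fold over the same libraries. Its low GC content (43.5%) bears on the value: once the median ratio of genes of like GC content and length was removed, the log2 ratio of spheroid to tumor moved from 0.39 to 1.60, above the size of those of Aco1 (-0.70) and Ireb2 (0.17), so that it no longer differed least.

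Ncoa4 encodes the receptor that brings ferritin to the lysosome for breakdown, which frees its iron, and lies at chr14:32159865-32179855. Its level was 57.7 CPM in the 2D monoculture, 15.2 in the 2D co-culture, 10.8 in the spheroid and 93.9 in the tumor. The largest step lay between the 2D monoculture and the 2D co-culture, at 3.79-fold, and the 2D co-culture and the spheroid differed by 1.41-fold. The log2 ratio against the 2D monoculture was -1.92 (-2.00 to -1.85) with fibroblasts in flat culture, at percentile 2.02 of all genes, and -2.42 (-2.50 to -2.34) in the spheroid, at percentile 2.18. There were 59.0 Fth1 reads for each Ncoa4 read in the 2D monoculture, 417 in the 2D co-culture, 1152 in the spheroid and 15.7 in the tumor. This ratio was highest in the spheroid and lowest in the tumor. The spheroid ratio was 19.5 times that of the 2D monoculture and 73.5 times that of the tumor. With genes of like GC content and length as the baseline, these became 8.55 and 32.2 times.

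The messages of the iron regulatory proteins, which bind hairpins of the kind shown above, had their lowest CPM in the spheroid. Aco1 encodes IRP1, which is a cytosolic aconitase when it holds an iron-sulfur cluster, and lies at chr4:40143081-40198338. Its level was 76.0 CPM in the 2D monoculture, 56.8 in the 2D co-culture, 39.4 in the spheroid and 52.6 in the tumor, a span of 1.93-fold. Ireb2 encodes IRP2, which is broken down when iron is plentiful, and lies at chr9:54863789-54912530. Its level was 84.5 CPM in the 2D monoculture, 55.1 in the 2D co-culture, 34.5 in the spheroid and 88.5 in the tumor, a span of 2.56-fold in which the tumor and the 2D monoculture lay within 1.05-fold.

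For each Aco1 read there were 1.11 Ireb2 reads in the 2D monoculture, 0.971 in the 2D co-culture, 0.876 in the spheroid and 1.68 in the tumor. This order is that of the reads alone: with genes of like GC content and length as the baseline, Ireb2 relative to Aco1 was 1.57 times the 2D monoculture value in the spheroid and 0.835 times in the tumor, the opposite direction in both. Ireb2 has the lowest GC content of the 9 genes (39.0%), and its ratio of spheroid to 2D monoculture moved from -1.29 to -0.30 once genes of like GC content and length were used as the baseline. That of spheroid to tumor moved from -1.36 to 0.17, so that its direction was not kept.

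**Figure D2:**
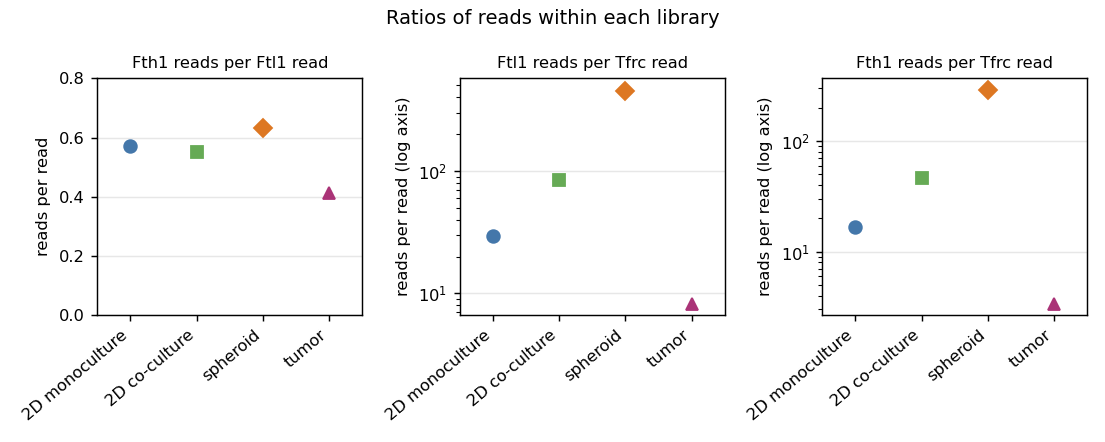
Reads of Fth1 per Ftl1 read (linear axis), and of each ferritin chain per Tfrc read (log axes), within each of the 4 libraries, with 95% counting intervals smaller than the points. The chains stand highest relative to Tfrc in the spheroid and lowest in the tumor, and the ratio of Fth1 to Ftl1 lies between 0.411 and 0.633.

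The ferritin chains can be set against the transferrin receptor within each library as well. There were 29.4 Ftl1 reads for each Tfrc read in the 2D monoculture, 84.2 in the 2D co-culture, 454 in the spheroid and 8.25 in the tumor. For Fth1 the values were 16.8, 46.3, 288 and 3.39. The spheroid ratio was 15.4 times that of the 2D monoculture for Ftl1 and 17.1 times for Fth1, and 55.1 and 84.9 times that of the tumor. These ratios combine genes that differ in opposite directions and share the libraries of the values above, so they restate those values without the scaling. They still follow GC content and length: with genes of like GC content and length as the baseline, the spheroid ratios were 6.22 and 6.87 times those of the 2D monoculture and 15.8 and 32.9 times those of the tumor. Slc11a2 is an uptake gene that, unlike Tfrc, was highest in the spheroid, so smaller differences against it follow in part from that choice. Against Slc11a2, the spheroid ratio was 1.52 times that of the 2D monoculture for Ftl1 and 1.68 times for Fth1. After the same correction, these became 0.838 and 0.926 times.

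Comparing whole libraries, 3 of the 9 genes were over 2-fold higher in the spheroid than in the 2D monoculture (Ftl1, Fth1 and Slc11a2) and 3 were over 2-fold lower (Tfrc, Ncoa4 and Ireb2). Of all 12728 genes averaging 1 CPM or more, 11.2% were over 2-fold higher and 17.9% lower in this comparison, with 1 CPM added to each value. The median log2 ratio was -0.66 over the 9 genes and 0.05 over all genes. Part of this contrast chose the genes, so nothing is read from the count.

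In the 2D co-culture against the 2D monoculture, 0 of the 9 genes were over 2-fold higher, beside 3.79% of all genes, and 1 was lower (Ncoa4), beside 9.51%. Ftl1 at 1.94-fold and Fth1 at 1.86-fold lay just inside the limit. The median was -0.30 over the 9 genes and 0.01 over all genes. The fibroblast markers summed to 652 CPM in this library and 6.54 in the 2D monoculture. Most of the sum in the 2D co-culture came from a single marker at 514 CPM, and the lowest marker had 0.0873 CPM.

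In the tumor against the 2D monoculture, 1 gene was over 2-fold higher (Tfrc, 2.14-fold), beside 14.8% of all genes, and 2 were lower (Steap3, 3.85-fold, and Fth1, 2.32-fold), beside 18.2%, and 33.1% of all genes were past 2-fold in either direction. The median was -0.53 over the 9 genes and -0.14 over all genes. Macrophage, fibroblast and muscle markers were higher in the tumor library, as given above. Of the erythroid list, Alas2 had 12.2 CPM in the tumor and at most 0.0873 elsewhere, and the 5 globin genes were listed at 0 in every library, which can also depend on how reads that match several places were handled and does not show that erythroid cells were absent.

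In the spheroid against the tumor, 4 genes were over 2-fold higher (Ftl1, Fth1, Slc11a2 and Steap3), beside 26.8% of all genes, and 3 were lower (Tfrc, Ncoa4 and Ireb2), beside 27.6%, and 54.4% of all genes were past 2-fold in either direction. The spheroid reads that chose Ftl1 and Fth1 enter this comparison too, so nothing is read from the count. The spheroid was 5.48-fold higher for Ftl1 and 8.44-fold higher for Fth1, and 10.1-fold lower for Tfrc and 8.70-fold lower for Ncoa4. Slc40a1 (1.31-fold) and Aco1 (1.34-fold) lay within 2-fold. The ratio of Steap3, 1.28 on the log2 scale, lay under 2-fold with total counts or with TMM factors from 2D monoculture genes.

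In the 2D co-culture against the tumor, 3 genes were over 2-fold higher (Fth1, Steap3 and Ftl1, with log2 ratios of 2.11, 1.89 and 1.69), beside 18.8% of all genes, and 2 were lower (Ncoa4 at -2.62 and Tfrc at -1.66), beside 20.9%, and 39.7% of all genes were past 2-fold in either direction. Between the spheroid and the 2D co-culture, from which B16F10 cells were sorted, the sum of the fibroblast markers differed (12.9 against 652 CPM). The part of these markers was not tested. Of the 9 genes, 0 were over 2-fold higher in the spheroid, beside 9.54% of all genes, and 1 was lower, beside 8.46%. That gene was Tfrc, 3.17-fold lower and at percentile 2.17 of all genes. Slc11a2 at 1.97-fold and Fth1 at 1.96-fold lay just inside the limit. As the spheroid reads chose Ftl1 and Fth1, nothing is read from this count either.

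The 3 comparisons against the 2D monoculture share that library and the 3 against the tumor share the tumor library, so the same reads enter several of them. Set side by side, the log2 ratios of spheroid, 2D co-culture and tumor to 2D monoculture were 1.87, 0.90 and -1.21 for Fth1, -2.23, -0.56 and 1.10 for Tfrc, and -2.42, -1.92 and 0.70 for Ncoa4.

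**Figure D3:**
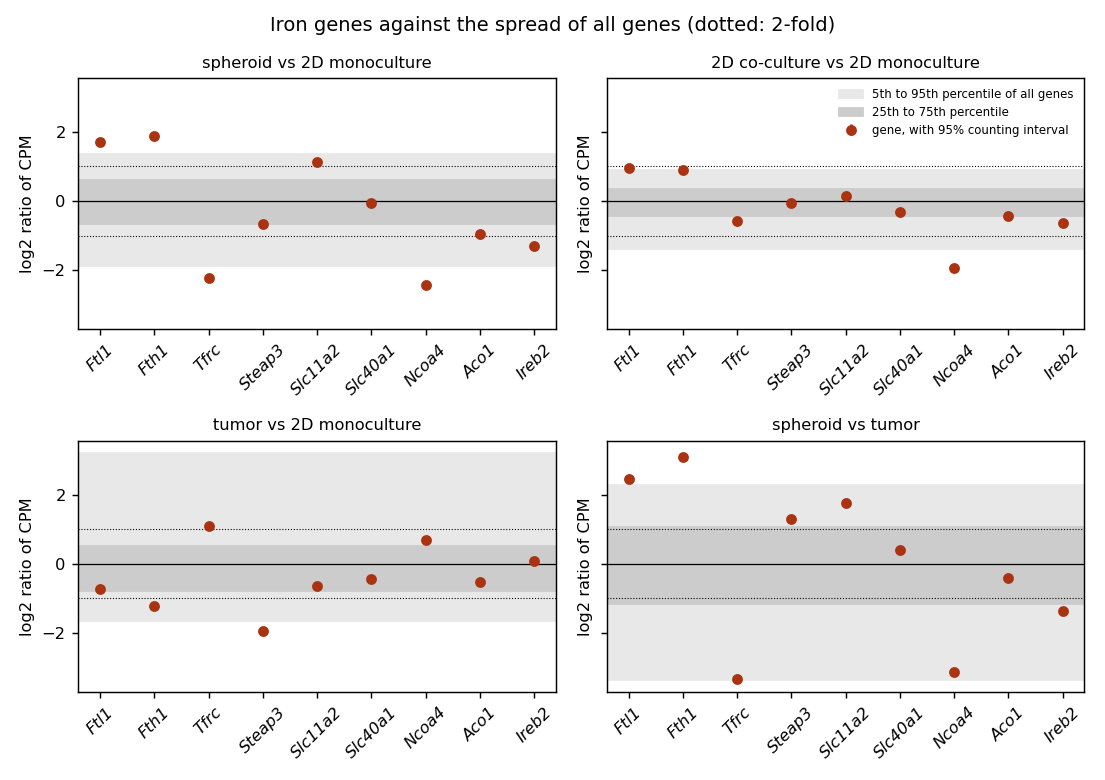
Log2 ratios of the 9 genes in 4 comparisons with 95% counting intervals, mostly smaller than the points and computed with nothing added to the CPM, over grey bands for the percentiles of all genes averaging 1 CPM or more (1 CPM added). Ftl1 and Fth1 at 1.72 and 1.87 and Tfrc and Ncoa4 at -2.23 and -2.42 lie outside the wider band, from the 5th to the 95th percentile, in the comparison of spheroid to 2D monoculture, for Ftl1 and Fth1 partly because their spheroid reads chose them.

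The ratios of all genes followed GC content and exonic length, which bears on those of the 9 genes that lie near either end. Ftl1 has a GC content of 58.1%, above 88.8% of genes, and Tfrc one of 39.8%, above 4.10%, while the exonic lengths of Ftl1 and Fth1 lie at percentiles 4.71 and 4.24. Across 12240 genes, which are not independent replicates, the spheroid to 2D monoculture ratio had a Spearman correlation of 0.497 with GC content and -0.402 with length. For tumor to 2D monoculture it was -0.39 with GC content and -0.179 with length, and for spheroid to tumor 0.551 and -0.140.

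With the median of 10 GC classes by 10 length classes removed, the spheroid to 2D monoculture ratios became smaller in size for the ferritin chains and their counterparts and kept their direction. They were 1.12 for Ftl1, 1.27 for Fth1, -1.51 for Tfrc and -1.83 for Ncoa4, all still past 2-fold, and 1.38 for Slc11a2. For the 2D co-culture the corrected values were 0.61, 0.52 and -1.67 for Ftl1, Fth1 and Ncoa4. For the tumor to 2D monoculture, Tfrc moved from 1.10 to 0.72 and was no longer past 2-fold, Fth1 moved from -1.21 to -1.58, and Steap3 from -1.94 to -1.29.

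**Figure D4:**
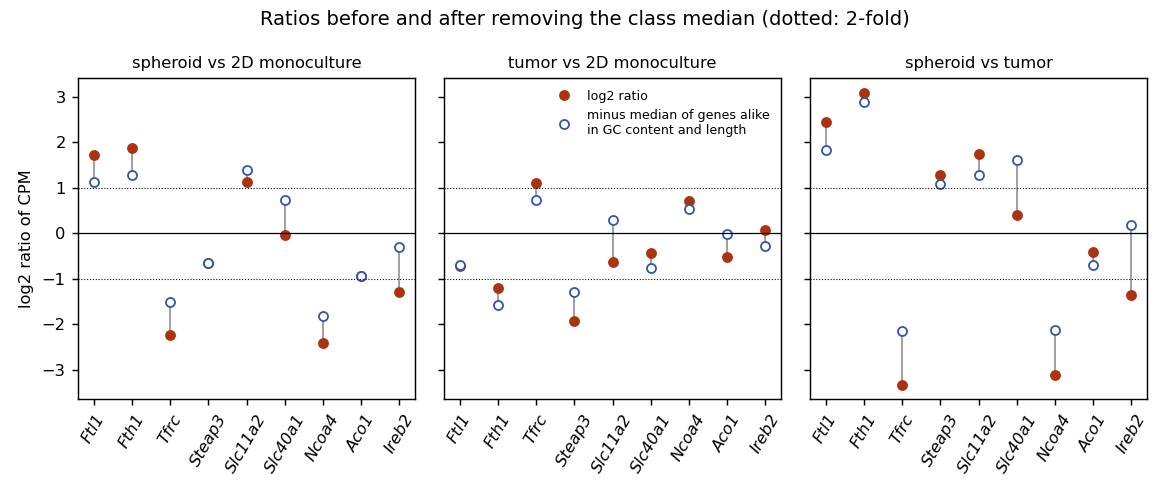
Log2 ratio of each of the 9 genes in 3 comparisons before (filled points) and after (open points) the median ratio of genes of like GC content and length is removed. Ftl1, Fth1, Tfrc and Ncoa4 keep their direction between spheroid and 2D monoculture, while Ireb2 moves from -1.36 to 0.17 between spheroid and tumor.

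The 9 genes were also compared with each other and with all genes by their pattern over the 4 libraries. The measure was the root mean square difference of log2 CPM, each gene centred on its own mean, over 4 libraries and among 9588 genes averaging 10 CPM or more. Among the 9 genes, Ftl1 and Fth1 were closest at 0.232, followed by Aco1 and Ireb2 at 0.352, Slc40a1 and Aco1 at 0.356, Ftl1 and Slc11a2 at 0.392, and Tfrc and Ncoa4 at 0.508. The farthest were Fth1 and Ncoa4 at 2.36 and Fth1 and Tfrc at 2.31. With only 4 points, many genes lie close to any pattern.

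Nearest to Ftl1 among all genes were Vangl2 (0.0549), Lpcat4 (0.0610) and Tmem121 (0.0788), and nearest to Fth1 were Pim3 (0.121), Slc1a4 (0.131) and Irx5 (0.134). Nearest to Tfrc were Ncapg2 (0.0912), Melk (0.122) and Mitf (0.145), the melanocyte transcription factor, whose level was 416 CPM in the 2D monoculture, 223 in the 2D co-culture, 70.3 in the spheroid and 708 in the tumor. The genes nearest to Slc40a1 were Mau2 (0.0241), Ccdc32 (0.0328) and Bloc1s5 (0.0365).

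Other genes of iron and heme metabolism were counted from 5 lists that do not include the 9 genes. The lists hold 71 genes of the table, of which 59 averaged 1 CPM or more. In the spheroid against the 2D monoculture 13 of the 59 were over 2-fold higher (22.0%, beside 11.2% of all genes) and 5 lower (8.47%, beside 17.9%), with a median log2 ratio of 0.29 against 0.05 for all genes. In the tumor against the 2D monoculture 4 were higher (6.78%, beside 14.8%) and 12 lower (20.3%, beside 18.2%), with medians of -0.16 and -0.14. In the 2D co-culture 0 were higher (beside 3.79%) and 2 lower (3.39%, beside 9.51%).

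In the list of heme breakdown and export, Hmox1, which frees iron from heme, had 1261 CPM in the 2D monoculture, 670 in the 2D co-culture, 3123 in the spheroid and 247 in the tumor. Unlike the ferritin chains it was lower in the 2D co-culture than in the 2D monoculture. Of the 7 genes of this list that passed the same limit, 3 were over 2-fold higher in the spheroid than in the 2D monoculture (beside 11.2% of all genes) and 1 lower (beside 17.9%). The extremes were Blvrb, a biliverdin reductase, at 94.8 and 271 CPM in the 2D monoculture and the spheroid, and Abcg2, an exporter of porphyrins and drugs, at 25.8 and 6.81 CPM. In the tumor 3 were lower than in the 2D monoculture (beside 18.2%) and 0 higher (beside 14.8%), and Blvra, the other biliverdin reductase, had the highest ratio with 61.1 against 31.2 CPM.

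Of the 9 genes of iron delivery and sensing inside the cell, 3 were over 2-fold higher in the spheroid than in the 2D monoculture (beside 11.2% of all genes) and 1 lower (beside 17.9%). Slc25a37, the mitochondrial iron importer mitoferrin 1, had 48.0 CPM in the 2D monoculture, 77.2 in the 2D co-culture, 173 in the spheroid and 34.8 in the tumor, the order of the ferritin chains. Herc2, a large ubiquitin ligase, had 110 CPM in the 2D monoculture, 14.5 in the 2D co-culture, 12.8 in the spheroid and 43.6 in the tumor. Fbxl5, the iron-sensing subunit of the ligase that marks IRP2 for breakdown, had 37.6, 31.2, 31.7 and 73.9 CPM in the same order of libraries.

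In the list of iron transport and systemic control 8 of 18 genes averaged 1 CPM or more. Trf, transferrin itself, had 157 CPM in the 2D monoculture, 150 in the 2D co-culture, 92.9 in the spheroid and 188 in the tumor, the order of Tfrc. Slc39a14, a transporter that takes up iron not bound to transferrin, had 61.8, 87.5, 184 and 63.3 CPM. It was the only gene of this list over 2-fold higher in the spheroid than in the 2D monoculture, and Cp, the ferroxidase ceruloplasmin, the only one lower, with 23.3 against 2.81 CPM. Steap4, a metalloreductase, had 61.4 CPM in the tumor and at most 0.114 in the other libraries, with 1 read in the 2D monoculture, and Steap2, another metalloreductase, had 53.2 CPM in the 2D monoculture and 14.3 in the tumor. The tumor library also held the macrophage, fibroblast and muscle markers given above.

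Of the 11 genes of heme synthesis, 1 was over 2-fold higher in the spheroid than in the 2D monoculture (9.09%, beside 11.2% of all genes) and 0 lower (beside 17.9%). In the tumor 1 was higher (9.09%, beside 14.8%) and 3 lower (27.3%, beside 18.2%). Ppox, the enzyme of the step before ferrochelatase, had 26.0 CPM in the 2D monoculture and 85.4 in the spheroid, and Uros, an earlier enzyme, 14.8 and 6.93. Alas2, the erythroid form of the first enzyme, had 12.2 CPM in the tumor and at most 0.0873 elsewhere, and Cpox, which acts just before Ppox, had 117 CPM in the 2D monoculture and 27.0 in the tumor.

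Of the 24 genes of iron-sulfur cluster assembly, 5 were over 2-fold higher (20.8%, beside 11.2% of all genes) and 2 lower (8.33%, beside 17.9%) in the spheroid than in the 2D monoculture. In the tumor 0 were higher (beside 14.8%) and 1 lower (4.17%, beside 18.2%). Hscb, a co-chaperone of cluster transfer, had 20.1 CPM in the 2D monoculture and 62.5 in the spheroid. Ndor1, a reductase of the cytosolic assembly route, had 47.4 CPM in the 2D monoculture and 18.9 in the tumor, and Isca1, an assembly protein of the mitochondrion, 76.1 and 108. The search for the hairpin pattern matched Alas2 in the 5′ UTR and Bola3 in the 3′ UTR among the genes of these lists.

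**Figure D5:**
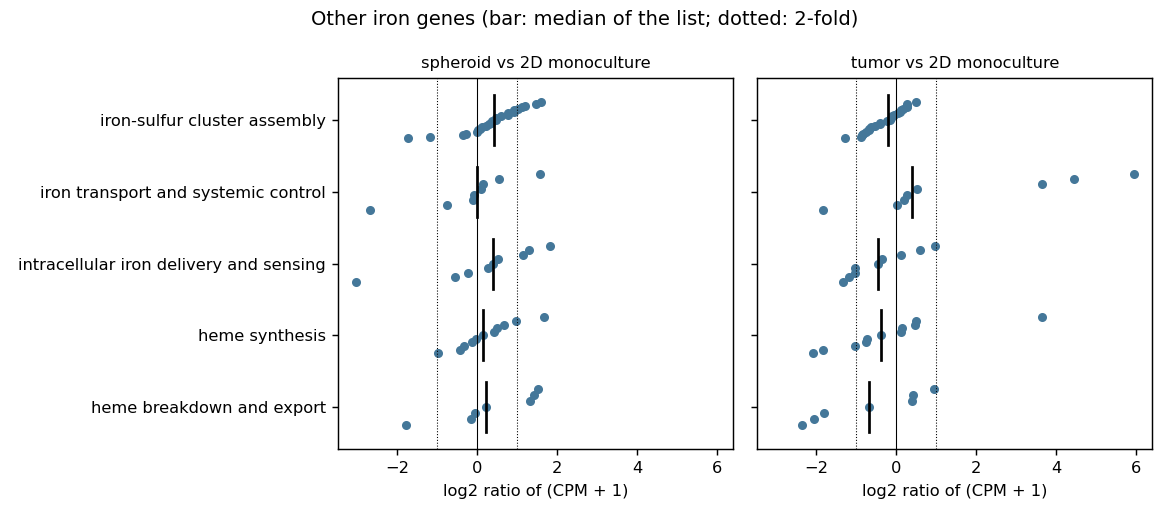
Log2 ratios (1 CPM added) of the other iron and heme genes by list, for spheroid to 2D monoculture and for tumor to 2D monoculture, with 1 point per gene and a bar at the median of each list. In the spheroid 13 of 59 genes lie over 2-fold higher and 5 lower, and in the tumor 4 lie higher and 12 lower.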

How the data were processed

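RNA was sequenced from 4 libraries, 1 per condition, after poly(A) selection and library construction with a kit whose counting by strand is not stated. The read counts were deposited by the authors in a single table by gene symbol, as whole numbers with no normalization applied. The submitters' processing notes name Trimmomatic, STAR, featureCounts and mm10, without versions. From the counts, TMM factors were computed with edgeR 4.0.16 in R 4.3.3, and CPM values, exact Clopper-Pearson intervals and log2 ratios (exact binomial intervals, counting error only) with scipy 1.17.1, pandas 2.3.3 and numpy 2.4.6 in Python 3.11.15. Figures were drawn with matplotlib 3.10.9. Ratios of the 9 genes had nothing added, and ratios over all genes and lists had 1 CPM added. With 1 library per condition no test was made, and a call is a difference past 2-fold. The simulated replicates of NOISeq, which the methods use, give no replicate check and were not used. The formulas of the ratio, the 2-fold call and the counting interval were tried on simulated counts with total count scaling. The TMM scaling, the GC and length classes and the sequence search were not part of that trial.

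Exonic lengths, GC content, coordinates and transcripts came from GENCODE vM21 (GRCm38), by symbol, for 83.5% of the genes of the table. Alternatives were total counts, upper quartiles, DESeq2 1.42.0 size factors, TMM factors from 9188 genes of the 2D monoculture, GC and length classes, another added value, other folds and filters, and added ferritin copies. These copies were the Fthl17 rows, which held 0 reads, so adding them could change nothing. The 9 genes and all lists were chosen with earlier results of these data known. Named besides them are Hmox1, Trf, Fbxl5, Slc39a14, the highest and lowest ratio of each list in 2 comparisons (spheroid and tumor against the 2D monoculture), the 3 nearest patterns of 4 genes, and the genes just outside the rank of Ftl1 and Fth1. The markers are described by their sums, and the fibroblast markers of the 2D co-culture also by their range. The values of 1 gene that this rule names are not reported here.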

Additional observations from a re-analysis of the deposited data

How the results depend on the processing

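Over 8 alternatives of scaling, GC and length, added values and copies, 417 of 432 calls of the 9 genes in 6 comparisons were the same. The 54 calls with added ferritin copies could not differ, because those rows held 0 reads. Relative to TMM, total counts moved every log2 ratio of spheroid to tumor by -0.36, and TMM factors from 2D monoculture genes moved tumor to 2D monoculture by 0.35. In tumor against 2D monoculture, the genes higher were 2 and the genes lower 1 with TMM factors from 2D monoculture genes, those lower 1 with total counts or upper quartiles, and those higher 0 with GC and length classes. In 2D co-culture against 2D monoculture, 2 were higher with upper quartiles (Ftl1 and Fth1). In spheroid against 2D co-culture, 1 was higher with GC and length classes (Slc11a2). With GC and length classes Ireb2 reversed to 0.17 between spheroid and tumor. A limit of 1.5-fold gave 5 lower in spheroid against 2D monoculture, 2 higher and 2 lower in 2D co-culture, 2 higher and 4 lower in tumor, and 3 higher and 3 lower in spheroid against 2D co-culture. A limit of 3-fold gave 0 higher and 1 lower in tumor against 2D monoculture. Ratios within 2-fold changed sign under some alternative for Slc40a1, Steap3, Slc11a2, Aco1 and Ireb2. Of 72 counts of other iron genes 67 stayed within 1.5 times, and those lower in the tumor were 6 with TMM factors from 2D monoculture genes and 5 with GC and length classes, against 12. Removing 66 genes over 100 times higher in the tumor, chosen after seeing the data and holding 2.55% of its reads, changed 0 calls of the 9 genes. Causes of these shifts were not tested. No paired analysis was possible because there was 1 library per condition. Depth does not limit these genes, whose lowest count was 1469 reads, while the lack of replicates limits every comparison.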
